A study of Drosophila melanogaster with 54 samples.

Results

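The genes described here encode the proteins of the mitochondrial ribosome in Drosophila melanogaster. They are all rows of the deposited expression table whose symbol begins with mRpL or mRpS and a digit, which gives 73 of the 13926 symbols in the table, 47 of the large subunit and 26 of the small subunit. Transcripts were measured in whole male flies at 10 days of age. A first strain, Cyto-FLucDM-GFP, carried 1 copy of a transgene whose product, a firefly luciferase mutant that misfolds readily and is joined to green fluorescent protein, acts in the cytoplasm. NLS-FLucDM-GFP flies carried 1 or 2 copies of a form directed to the nucleus, and Mito-FLucDM-GFP flies carried 1 or 2 copies of a form directed to the mitochondria. The control, w1118, is the isogenic strain without the transgene. Each of these 6 strains was reared at 18, 25 and 29 °C, with 3 libraries in each of the 18 groups, or 54 in all. The sources used here do not give the promoter of the transgene, its insertion sites or the number of flies in a library. The labels do not say that the 3 libraries of a group came from separate cultures, so the p-values below rest on a spread between libraries that may be technical.

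Mitochondrial ribosomes translate the few messenger RNAs that the mitochondrial genome encodes, all of them for subunits of the respiratory chain and the ATP synthase. Their RNAs come from the mitochondrial genome, whereas all their proteins are encoded in the nucleus, made on cytosolic ribosomes and imported. Some of these proteins descend from bacterial ribosomal proteins, and others, such as those named mRpS22, mRpS31, mRpS35, mRpL37, mRpL39, mRpL50 and mRpL51, have no bacterial counterpart. Impaired folding or translation inside mitochondria is known to change the expression of nuclear genes for mitochondrial proteins in animals.

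Levels are in TPM, a unit that corrects for transcript length and is scaled to the same total in every library, so that genes can be compared within a library. The 73 genes together held between 2579 and 3195 TPM in single libraries, which is 0.258% to 0.320% of all transcripts. All 73 passed the filter of at least 1 TPM in at least 3 libraries that left 12555 genes to test. By mean over the 54 libraries, mRpS5, the counterpart of a bacterial protein at the entry of the messenger RNA channel, was highest with 207 TPM (lowest library 151, median 212, highest 266). It was followed by mRpS7, with 72.1 to 122 TPM in single libraries, and mRpL28, with 62.9 to 103 TPM. The lowest were mRpL48 with 20.1, mRpL11 with 16.5 and mRpL21 with 12.3 TPM. So mRpS5 stood apart, with no library at or below the highest value of any other gene of the set. The order of the 73 genes was similar in all groups, with Spearman's rho between 0.676 and 0.964 over the pairs of the 18 group means (across genes, which are not independent replicates). The number of reads behind each value is unknown.

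The BDGP6 annotation holds all 73 genes. Of these genes 21 lie on 3R, 17 on 3L, 12 on 2R, 12 on 2L and 11 on X, so the set as a whole is not a single cluster. Exons of 43 of them share bases with another annotated gene, a median of 55 bases, and 9 share more than 100. The labels do not state whether the libraries keep strand, and reads from the shared bases cannot then be told apart. The overlap is on the same strand for mRpL13, mRpL53 and mRpS14, whose values are uncertain even if strand was kept. For mRpL53 it covers all 829 exonic bases. If strand was not kept, the values of the other overlapping genes are uncertain as well.

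The first question is how the strains with the misfolding protein differ from w1118. Each was set against w1118 over the 3 temperatures, 9 libraries against 9, with limma on log2(TPM + 1) and a Benjamini-Hochberg adjusted p under 0.05 over all 12555 genes. In Cyto 1 copy, 32 of the 73 genes rose and 10 fell, when 31.1% of all genes rose and 35.3% fell. In NLS 1 copy, 25 rose and 18 fell, against 30.5% and 38.3% of all genes. In NLS 2 copies, 30 rose and 14 fell, against 26.1% and 41% of all genes. In Mito 1 copy, 29 rose and 7 fell, against 26.6% and 36.7% of all genes. In Mito 2 copies, 28 rose and 6 fell, against 19.6% and 36.3% of all genes. The share of the 73 genes that fell was 13.7%, 24.7%, 19.2%, 9.59% and 8.22% in this order of strains, below that of all genes in each. All 5 comparisons use the same w1118 libraries.

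The differences were small. The median difference of the 73 genes on the log2(TPM + 1) scale was 0.06 in Cyto 1 copy, 0.03 in NLS 1 copy, 0.06 in NLS 2 copies, 0.06 in Mito 1 copy and 0.05 in Mito 2 copies, while the median of all genes tested lay between -0.05 and -0.01. A difference of at least 0.5 in size was reached by 1 gene each in Cyto 1 copy, NLS 1 copy and NLS 2 copies and by none in Mito 1 copy and Mito 2 copies. Summed over the 73 genes, the level averaged 2947 ± 122 TPM in Cyto 1 copy, 2838 ± 132 in NLS 1 copy, 2932 ± 27.7 in NLS 2 copies, 2916 ± 125 in Mito 1 copy and 2903 ± 76.1 in Mito 2 copies, against 2759 ± 110 TPM in w1118 (SD, n = 9 each). The range of single libraries in each of these strains overlapped that of w1118, 2579 to 2965 TPM. The small subunit had its median at 0.10 in Mito 2 copies, where 13 of its 26 genes rose and none fell (limma; 14 rose and 0 fell at an unadjusted p under 0.05), and at 0.01 in NLS 1 copy, where 10 rose and 9 fell. The large subunit had 15 of 47 up and 6 down in Mito 2 copies and 15 up and 9 down in NLS 1 copy.

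Scaling weighs on the split between rises and falls. With TPM as deposited, 58.1% of the calls in NLS 1 copy and 68.2% in NLS 2 copies were rises. They made 78.6% and 90.5% after quantile normalization, and 76.9% and 90.7% with median-ratio size factors. The median difference of the 73 genes was 0.08, 0.09, 0.12, 0.10 and 0.10 after quantile normalization, and 0.07, 0.08, 0.12, 0.09 and 0.10 with median-ratio size factors, in the order Cyto 1 copy, NLS 1 copy, NLS 2 copies, Mito 1 copy and Mito 2 copies. Of the 7 falls in Mito 1 copy, 4 were left without replicate 1 of w1118 at 18 °C.

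Other tissues of the whole fly moved in the same comparisons. Of 23 testis markers, 20 fell in Cyto 1 copy, 21 in NLS 1 copy, 20 in NLS 2 copies, 21 in Mito 1 copy and 10 in Mito 2 copies, and 1 or 2 rose in each. Their summed level ran from 8181 to 13020 TPM over the libraries of these 5 strains and from 9922 to 13780 TPM in w1118. Of 8 fat body markers, 6, 7, 7, 5 and 6 rose in the same order of strains and 1 fell in each, with sums of 2359 to 3188 TPM in the 5 strains and 1760 to 2498 TPM in w1118. Among 18 muscle markers 8, 8, 10, 11 and 12 rose and 5, 3, 2, 3 and 1 fell, with sums of 4724 to 9013 TPM in the 5 strains and 4686 to 6709 TPM in w1118. No marker of these lists was at 0 in any library. The part of these tissues in the differences of the ribosomal genes was not tested, and fewer cells of a type cannot be told apart from less RNA per cell in whole flies.

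**Figure D1:**
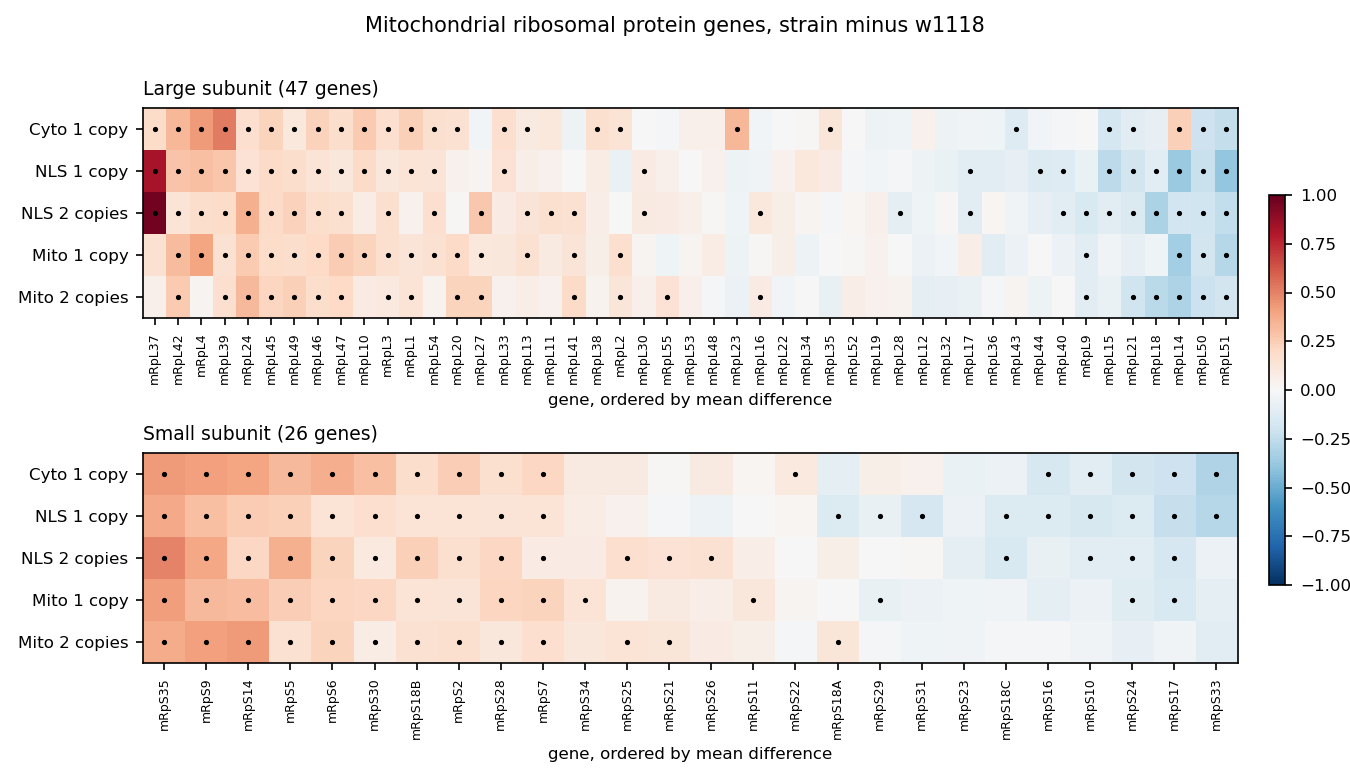
Difference of each of the 73 genes from w1118 in 5 strains, as the difference of mean log2(TPM + 1) over 3 temperatures (colour), with the large subunit above and the small subunit below and genes ordered by their mean difference. Black dots mark an adjusted p under 0.05 (limma). mRpL37 reaches 0.83 and 0.96 in the NLS strains, mRpL14 is above w1118 in Cyto 1 copy and below it in the other 4 strains, and all other genes lie between -0.39 and 0.52.

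With TPM as deposited, 18 of the 73 genes rose in all 5 strains, 24.7% of the set, when 12.7% of all genes did. Among small subunit genes, the strains had a similar pattern at mRpS35, mRpS9, mRpS14 and mRpS5. These are named because they rose in every strain with the largest mean differences. mRpS35 (3L:2780899-2782105, plus strand, BDGP6) encodes a protein of the small subunit with no bacterial counterpart. Its median over 9 libraries was 30.8 TPM in Cyto 1 copy (24.6 to 40.0), 29.5 in NLS 1 copy (24.5 to 41.4), 34.3 in NLS 2 copies (24.5 to 43.6), 31.4 in Mito 1 copy (26.9 to 42.5) and 31.2 in Mito 2 copies (25.3 to 36.8), against 24.2 TPM in w1118 (18.5 to 29.9). The ranges overlap because mRpS35 also differed by temperature within each strain. Its log2 difference from w1118 was 0.43, 0.38, 0.49, 0.42 and 0.37 in these 5 strains, each with a standard error of 0.045 (limma, largest adjusted p = 2.72e-09).

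mRpS9 (3R:7889277-7902667, minus strand, BDGP6) encodes the counterpart of a bacterial protein that touches the peptidyl tRNA. It had 61.3 to 74.2 TPM in Cyto 1 copy (median 66.8), 57.4 to 67.4 in NLS 1 copy (median 60.2), 59.5 to 70.3 in NLS 2 copies (median 65.7), 56.7 to 68.7 in Mito 1 copy (median 64.3) and 60.4 to 72.7 in Mito 2 copies (median 66.4), against 46.9 to 53.4 TPM in w1118 (median 50.3). Every library with the transgene was above every library of w1118. The log2 differences were 0.41, 0.30, 0.38, 0.32 and 0.41, each with a standard error of 0.033 (limma, largest adjusted p = 1.05e-10). mRpS9 shares 325 exonic bases with ArgRS-m, the mitochondrial arginyl-tRNA synthetase on the other strand, whose own differences from w1118 were between -0.14 and -0.04.

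mRpS14, the counterpart of a bacterial protein of the small subunit head, had log2 differences of 0.39, 0.26, 0.21, 0.31 and 0.42 in the same order of strains (limma, largest adjusted p = 0.00186). It shares 255 bases with Naa15-16 on the other strand and 30 with CG32533 on its own. Naa15-16 fell in all 5 strains, by between 0.13 and 0.18 on the log2 scale. mRpS5, the most abundant gene of the set, differed by 0.32, 0.24, 0.36, 0.24 and 0.15 (limma, largest adjusted p = 0.00229). In TPM it ran from 188 to 251 in Cyto 1 copy, 176 to 240 in NLS 1 copy, 193 to 261 in NLS 2 copies, 173 to 266 in Mito 1 copy and 151 to 229 in Mito 2 copies, against 159 to 199 in w1118. mRpL42 of the large subunit completes the named rises, with differences of 0.33, 0.29, 0.14, 0.32 and 0.26, and its adjusted p of 0.0392 in NLS 2 copies (limma) was the largest of the 5. That call was lost without any 1 of 10 of the 18 libraries, and the difference was lowest, at 0.09, without replicate 2 of w1118 at 18 °C. At 29 °C alone mRpL42 had -0.040 in NLS 2 copies, the opposite sign.

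Falls in every strain were seen for mRpL51 and mRpL50, in the mean over temperatures, both of the large subunit and both without a bacterial counterpart. These 2 genes are 2.74% of the set, when 19% of all genes fell in all 5 strains. At 29 °C alone mRpL50 had 0.020 in Mito 1 copy, the opposite sign. mRpL51 (2L:8516753-8517380, minus strand) had medians of 45.0 TPM in Cyto 1 copy, 40.5 in NLS 1 copy, 43.8 in NLS 2 copies, 44.4 in Mito 1 copy and 46.0 in Mito 2 copies, against 50.1 TPM in w1118, where single libraries reached from 46.2 to 65.4 TPM. Its log2 difference was -0.24, -0.39, -0.24, -0.29 and -0.19 (limma, largest adjusted p = 3.75e-04). mRpL50 differed by -0.20, -0.23, -0.20, -0.19 and -0.21 (limma, largest adjusted p = 0.00101). Neos, a gene on the other strand that shares 60 exonic bases with mRpL50, differed by -0.25, -0.33 and -0.22 in Cyto 1 copy, NLS 1 copy and NLS 2 copies and passed in these, and by -0.04 and 0.08 in Mito 1 copy and Mito 2 copies, where it did not.

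One gene was higher in each strain with the nuclear form than in w1118 and in the strains with another form set against it. mRpL37 (3R:10782563-10784092, minus strand, BDGP6) encodes a large subunit protein specific to mitochondria. In NLS 1 copy it had 35.7, 40.3 and 26.4 TPM at 18 °C, 37.7, 39.7 and 38.4 TPM at 25 °C and 44.7, 38.0 and 57.3 TPM at 29 °C. In NLS 2 copies it had 51.5, 38.0 and 27.0 TPM at 18 °C, 56.9, 43.7 and 43.2 TPM at 25 °C and 38.3, 45.1 and 51.1 TPM at 29 °C. In w1118 it had 19.5, 22.3 and 20.2 TPM at 18 °C, 19.9, 21.5 and 20.7 TPM at 25 °C and 24.2, 24.6 and 22.2 TPM at 29 °C. All 18 libraries of the NLS strains were above all 9 of w1118. Single libraries reached from 22.5 to 28.1 TPM in Cyto 1 copy, 20.1 to 30.5 in Mito 1 copy and 19.8 to 24.9 in Mito 2 copies, so that the lowest NLS libraries, at 26.4 and 27.0 TPM, lay within the ranges of Cyto 1 copy and Mito 1 copy.

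The log2 difference of mRpL37 from w1118 was 0.83 ± 0.078 (SE) in NLS 1 copy, with adjusted p = 2.15e-12, and 0.96 ± 0.078 in NLS 2 copies, with adjusted p = 3.57e-14 (limma). It was 0.18 in Cyto 1 copy (adjusted p = 0.0385), 0.16 in Mito 1 copy (adjusted p = 0.0784) and 0.05 in Mito 2 copies (adjusted p = 0.625), by the same test. Set directly against each other, NLS 1 copy exceeded Cyto 1 copy by 0.65 (adjusted p = 1.81e-08), Mito 1 copy was below NLS 1 copy by 0.67 (log2 difference -0.67, adjusted p = 1.43e-08), and Mito 2 copies was below NLS 2 copies with -0.91 (adjusted p = 2.99e-12, limma). The difference between 2 copies and 1 copy of the NLS transgene was 0.13, with a 95% interval of -0.02 to 0.29 (adjusted p = 0.200, limma). In both strains mRpL37 passed at each temperature, with differences of 0.68, 0.87 and 0.93 in NLS 1 copy and 0.83, 1.16 and 0.89 in NLS 2 copies at 18, 25 and 29 °C. mRpL37 shares no exonic base with another annotated gene. Of the genes around it, looked at after its values were seen, CG42633 on the same strand, at 3R:10780965-10782267, was also higher in NLS 1 copy and NLS 2 copies, at 3.22 and 2.99 TPM against 0.719 TPM in w1118 (log2 differences 1.24 and 1.14, adjusted p = 5.25e-12 and 5.23e-11, limma). It held 0.731 TPM in Cyto 1 copy, 1.01 in Mito 1 copy and 0.894 in Mito 2 copies, and none of these differences passed. Desi, the next gene, rose in all 5 strains, by between 0.43 in Cyto 1 copy and 0.94 in Mito 1 copy.

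**Figure D2:**
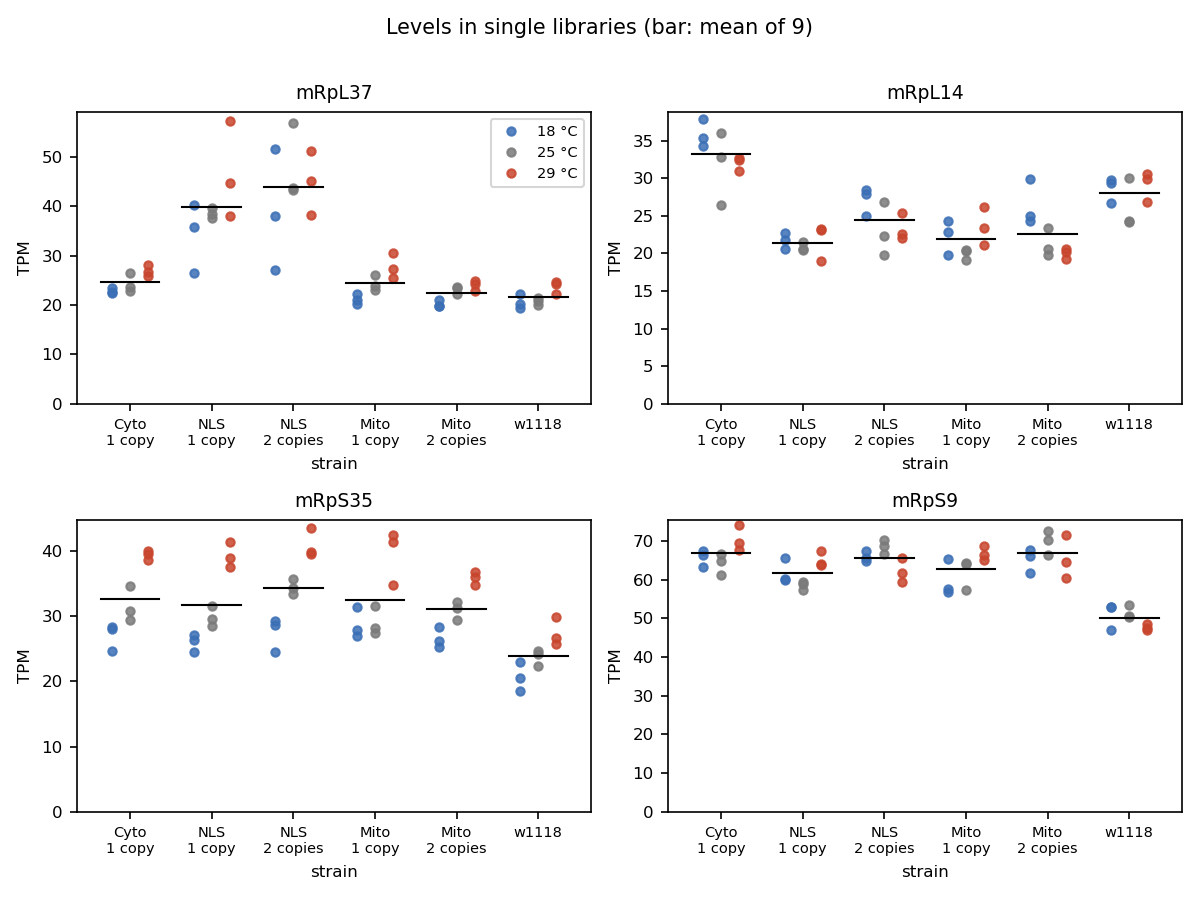
TPM of mRpL37, mRpL14, mRpS35 and mRpS9 in single libraries (points, coloured by rearing temperature) of the 5 strains with the transgene and, at the right, w1118; bars are means of 9 libraries. mRpL37 is high in the NLS strains, mRpL14 is high in Cyto 1 copy, and mRpS35 and mRpS9 are above w1118 in all 5 strains.

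mRpL14, the counterpart of a bacterial protein at the interface of the subunits, was higher in Cyto 1 copy than in NLS 1 copy, Mito 1 copy and w1118. Its levels were 26.5 to 37.9 TPM in Cyto 1 copy (median 32.8), 19.0 to 23.2 in NLS 1 copy (median 21.5), 19.8 to 28.5 in NLS 2 copies (median 24.9), 19.1 to 26.1 in Mito 1 copy (median 21.1) and 19.2 to 29.9 in Mito 2 copies (median 20.6), against 24.1 to 30.6 TPM in w1118 (median 29.4). Against w1118 it rose by 0.24 in Cyto 1 copy and fell with differences of -0.37, -0.19, -0.34 and -0.31 in the other 4 strains (limma, largest adjusted p = 0.00377). The direct comparisons gave -0.61 for NLS 1 copy against Cyto 1 copy (adjusted p = 4.53e-11) and -0.58 for Mito 1 copy against Cyto 1 copy (adjusted p = 1.98e-10, limma), with no overlap between the libraries in either. mRpL14 lies on X and shares no exonic base with another gene.

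mRpL23, the counterpart of a bacterial protein at the exit of the peptide tunnel, rose by 0.33 in Cyto 1 copy (adjusted p = 9.29e-06, limma). Its differences in the other 4 strains were between -0.06 and -0.04 and none passed. Set against Cyto 1 copy, mRpL23 was lower in NLS 1 copy, with -0.39, and in Mito 1 copy, with -0.38 (limma, largest adjusted p = 6.84e-06). mRpL39, a large subunit protein specific to mitochondria, had 34.9 to 44.3 TPM in Cyto 1 copy, against 25.2 to 33.7 TPM in w1118, with no overlap and a log2 difference of 0.52 ± 0.055 (SE, adjusted p = 6.17e-11, limma). It rose in the other 4 strains too, by 0.15 to 0.28. Zip71B, which shares 3 exonic bases with mRpL39, rose in all 5 strains, by 0.61 to 0.88.

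mRpL4 is the counterpart of a bacterial protein that lines the peptide tunnel. It had 30.9 to 36.1 TPM in Cyto 1 copy, 28.6 to 34.3 in NLS 1 copy, 25.7 to 33.0 in NLS 2 copies, 29.1 to 37.0 in Mito 1 copy and 20.2 to 30.5 in Mito 2 copies, against 22.2 to 26.4 TPM in w1118. It rose by 0.43, 0.30, 0.18 and 0.39 in the first 4 strains (limma, largest adjusted p = 4.38e-05), and its difference was 0.03 in Mito 2 copies (95% interval -0.05 to 0.10). CG4278, which shares 73 exonic bases with mRpL4 on the other strand, had 0.19, 0.21, 0.01, 0.15 and -0.07, of which those in Cyto 1 copy, NLS 1 copy and Mito 1 copy passed.

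The remaining named falls differed by strain in their values. mRpS33 fell in Cyto 1 copy and NLS 1 copy, with -0.30 and -0.29, mRpL18 fell in NLS 2 copies and Mito 2 copies, with -0.32 and -0.27 (limma, largest adjusted p = 2.66e-05). mRpL18 also fell in NLS 1 copy, with -0.10 (adjusted p = 0.0372, limma). It shares 41 exonic bases with ox on the other strand, whose mean was far higher, at 888 TPM. The differences of ox from w1118 were 0.12 and 0.19 in NLS 1 copy and NLS 2 copies. They were 0.17 and 0.16 in Mito 1 copy and Mito 2 copies, and all of these passed. In Cyto 1 copy ox had -0.01, which did not pass. mRpS17 fell in 4 strains, with -0.21 in Cyto 1 copy, -0.23 in NLS 1 copy, -0.17 in NLS 2 copies and -0.15 in Mito 1 copy (limma, largest adjusted p = 3.75e-04). Its difference in Mito 2 copies was -0.04 and did not pass.

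Copy number was compared within the NLS and Mito strains. In NLS 2 copies against NLS 1 copy, 15 of the 73 genes passed, when 28.1% of all genes did. mRpL27 rose by 0.24 and mRpS33 by 0.23, while mRpL18 had -0.22 and mRpL4 -0.13 (limma, largest adjusted p = 0.00690). In Mito 2 copies against Mito 1 copy, 13 passed, when 42.2% of all genes did. mRpL4 was lower in Mito 2 copies, at 25.3 ± 3.199 TPM against 32.7 ± 2.89 TPM in Mito 1 copy (SD, n = 9 each; log2 difference -0.36, adjusted p = 8.24e-11, limma), and mRpL18 had -0.23. mRpL55 rose by 0.18 and mRpS18A by 0.12. The adjusted p of mRpS18A was 0.0369 (limma), and its call was lost without any 1 of 9 of the 18 libraries, with a lowest value of 0.09 without replicate 3 of Mito 1 copy at 18 °C. In both pairs, then, mRpL18 and mRpL4 were lower with 2 copies than with 1.

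Forms for different compartments were compared at equal copy number. In NLS 1 copy against Cyto 1 copy, 14 of 73 passed, when 32.1% of all genes did; mRpL37 and mRpL30 had the largest rises, 0.65 and 0.09, and mRpL14 and mRpL23 the largest falls, -0.61 and -0.39. In Mito 1 copy against Cyto 1 copy, 14 passed, when 26.4% of all genes did, with mRpS33 at 0.21 and mRpL41 at 0.18. Against NLS 1 copy, Mito 1 copy gave 14 calls, when 31.1% of all genes passed, with mRpL2 at 0.24 and mRpL15 at 0.23 and mRpL37 the single fall. Of these calls 13 were rises, with TPM as deposited. After quantile normalization 6 genes rose and 4 fell, and with median-ratio size factors 6 rose and 3 fell. In Mito 2 copies against NLS 2 copies, 11 passed, when 47.3% of all genes did, with mRpS14 and mRpL20 at 0.21 each and mRpS5 at -0.21 (limma, largest adjusted p = 0.0286 for mRpL30). With TPM as deposited, the share of the 73 genes that passed was lower than that of all genes in each of these 6 comparisons. Both mRpL30 and mRpL41 lost their call without some single libraries, mRpL30 with 0.07 without replicate 2 of Cyto 1 copy at 18 °C and mRpL41 with 0.15 without replicate 3 of Mito 1 copy at 29 °C.

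At single temperatures, with 3 libraries against 3, calls against w1118 were fewer. At 18 °C, 21 of 73 passed in Cyto 1 copy, 24 in NLS 1 copy, 23 in NLS 2 copies, 18 in Mito 1 copy and 20 in Mito 2 copies, when 43.8%, 48.4%, 46.1%, 39.1% and 38.1% of all genes passed. At 25 °C, 22, 22, 23, 22 and 24 of 73 passed in the same order, when 41.3%, 46.9%, 48.9%, 35.6% and 37.5% of all genes did. At 29 °C, 33, 23, 25, 27 and 18 passed, when 59.9%, 57.4%, 52.7%, 53.7% and 34.1% of all genes did. With TPM as deposited the share among the 73 genes was below that of all genes in each of these comparisons. Of the 23 calls in NLS 2 copies at 18 °C, 15 were left without its replicate 3, and the 24 in Mito 2 copies at 25 °C were 15 without replicate 3 of w1118.

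Within each strain, rises outnumbered falls among these genes between 29 and 18 °C, except in Mito 2 copies after quantile normalization or with median-ratio size factors. With TPM as deposited, rises also outnumbered falls among all genes tested in each strain but NLS 1 copy. At 29 °C against 18 °C, 3 libraries against 3, 28 of the 73 genes rose and 8 fell in Cyto 1 copy, when 30.3% of all genes rose and 19.5% fell. In NLS 1 copy, 36 rose and 7 fell, against 24.7% and 27.8% of all genes. In NLS 2 copies, 24 rose and 16 fell, against 29.8% and 24.2%. In Mito 1 copy, 34 rose and 8 fell, against 26% and 22.9% of all genes. In Mito 2 copies, 18 rose and 16 fell, against 32.3% and 21.9%. In w1118, 25 rose and 12 fell, against 28.9% and 27.1%.

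Median differences of the 73 genes between 29 and 18 °C were 0.14 in Cyto 1 copy, 0.18 in NLS 1 copy, 0.11 in NLS 2 copies, 0.17 in Mito 1 copy, 0.00 in Mito 2 copies and 0.04 in w1118, on the log2(TPM + 1) scale. The median of Mito 2 copies changed sign with scaling, to -0.05 after quantile normalization and -0.02 with median-ratio size factors, and rises then made 37.1% (13 of 35 calls) and 48.6% (17 of 35) in place of 52.9%. In Cyto 1 copy, rises made 63.6% of the calls with median-ratio size factors in place of 77.8%. Of the 8 falls in Mito 1 copy, 5, 4 and 5 were left without replicate 1 at 18 °C, replicate 1 at 29 °C and replicate 2 at 29 °C.

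The subunits differed in their values. The 26 small subunit genes had medians of 0.20, 0.23, 0.18, 0.23 and 0.13 in the strains with the transgene, Cyto 1 copy first and Mito 2 copies last, and 0.15 in w1118. The 47 large subunit genes had medians of 0.11, 0.15, 0.04, 0.13 and -0.08 in those strains and 0.02 in w1118. The mean TPM of large subunit genes divided by that of small subunit genes was 0.778 ± 0.020 at 18 °C, 0.712 ± 0.017 at 25 °C and 0.724 ± 0.023 at 29 °C (SD, n = 18 each). It lay between 0.738 and 0.808 in the libraries at 18 °C and between 0.688 and 0.737 in those at 25 °C, so that these did not overlap. Summed small subunit TPM averaged 1181 ± 38.4 at 18 °C, 1246 ± 64.7 at 25 °C and 1281 ± 48.6 at 29 °C, and summed large subunit TPM 1660 ± 43.6, 1602 ± 63.5 and 1677 ± 79.7 (SD, n = 18 each). The small subunit sum includes mRpS5, which had 217.5 ± 18.6, 225 ± 29.3 and 179.8 ± 16.2 TPM at these temperatures (SD, n = 18 each). This gene weighs on the ratio, which was not computed without it.

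The cytosolic ribosome and the respiratory chain, listed for comparison, lay on either side of the mitochondrial ribosome. Of 92 cytosolic ribosomal protein genes, 73 rose in Cyto 1 copy at 29 °C, 76 in NLS 1 copy, 74 in NLS 2 copies, 78 in Mito 1 copy, 66 in Mito 2 copies and 57 in w1118, and between 2 and 5 fell. Of 83 nuclear genes of the respiratory chain and ATP synthase, 58, 59, 62, 53 and 65 fell in these strains and 49 in w1118, and between 2 and 12 rose. Their medians ran from 0.20 to 0.35 for the cytosolic ribosome and from -0.52 to -0.19 for the respiratory chain. The 11 mitochondrial chaperone and protease genes summed to 2018 ± 267 TPM at 29 °C against 1251 ± 52.6 TPM at 18 °C (SD, n = 18 each).

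Markers of tissues moved with temperature as well. Muscle markers fell at 29 °C against 18 °C in 10 to 17 of 18 genes, with sums of 4686 to 5514 TPM at 29 °C against 6024 to 9013 TPM at 18 °C. Testis markers differed between strains in their values. Of 23, 2 rose and 4 fell in Cyto 1 copy, 2 rose and 7 fell in NLS 1 copy, 7 rose and 1 fell in NLS 2 copies, 2 rose and 6 fell in Mito 1 copy, 13 rose and 1 fell in Mito 2 copies, and 17 rose and 1 fell in w1118. Their sum averaged 9805 TPM at 29 °C against 10350 TPM at 18 °C in Cyto 1 copy, 8578 against 9657 in NLS 1 copy, 10090 against 9598 in NLS 2 copies, 9687 against 10430 in Mito 1 copy, 12800 against 11110 in Mito 2 copies, and 13240 against 10780 in w1118. This mean sum was lower at 29 °C in Cyto 1 copy, NLS 1 copy and Mito 1 copy. With TPM as deposited, these 3 strains had the highest medians of the ribosomal genes given above. After quantile normalization they did as well, with 0.107 in Cyto 1 copy, the lowest of them, and 0.071 in NLS 2 copies. With median-ratio size factors they did not, as the median was 0.078 in NLS 2 copies and 0.073 in Cyto 1 copy. Fat body sums were 1760 to 2917 TPM at 29 °C against 2475 to 3188 TPM at 18 °C. The part of these tissues in the temperature differences was not tested.

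**Figure D3:**
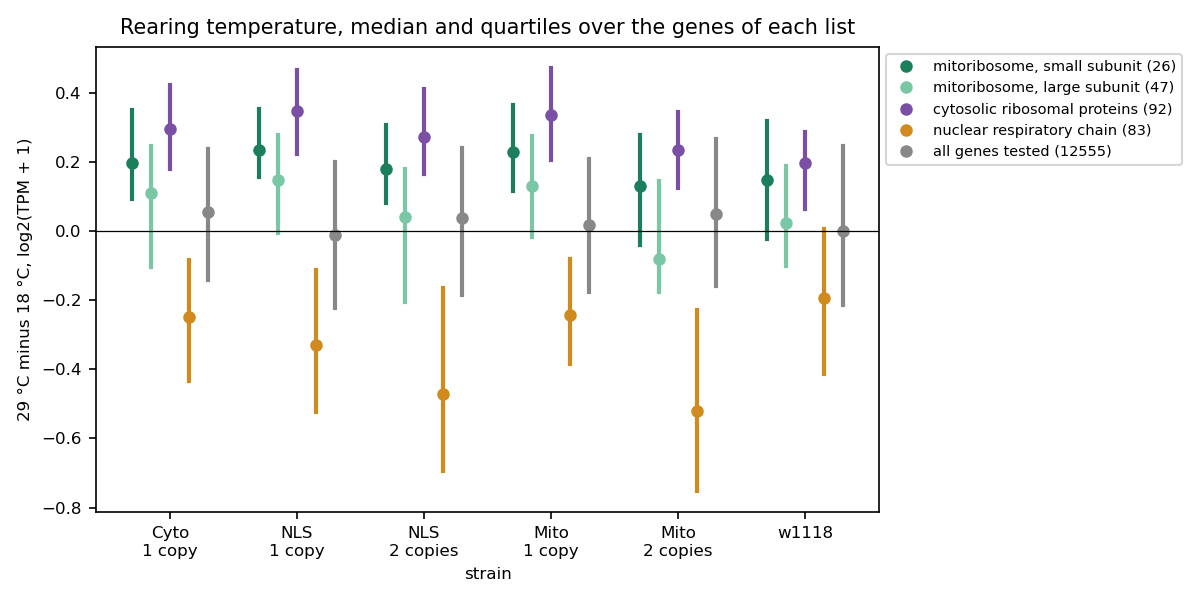
Difference between 29 and 18 °C within each strain, on the log2(TPM + 1) scale, as the median (point) and quartiles (line) over the genes of each list, whose sizes are in the legend. Cytosolic ribosomal protein genes have medians between 0.20 and 0.35, respiratory chain genes between -0.52 and -0.19, and the 2 subunits of the mitochondrial ribosome lie between them, the small subunit above the large one in every strain.

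These 6 temperature comparisons use separate libraries. In all 6 strains 12 of the 73 genes rose, 16.4% of the set, when 10.2% of all genes did. They are mRpS31, mRpS35, mRpS22, mRpL13, mRpL54, mRpL16, mRpL1, mRpS11, mRpS23, mRpL12, mRpS17 and mRpL38 in order of mean difference. In all 6 strains 7 fell, 9.59% of the set, when 9.14% of all genes did, namely mRpS14, mRpL23, mRpL42, mRpL10, mRpL28, mRpS5 and mRpL45. The first 3 of the rises are small subunit proteins with no bacterial counterpart, and the falls include mRpS5 and mRpL28, 2 of the 3 most abundant genes of the set.

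mRpS31 showed the largest mean rise. At 18, 25 and 29 °C it had 22.1 ± 1.11, 27.3 ± 1.39 and 30.7 ± 1.05 TPM in w1118, and in single libraries 29.8, 30.5 and 31.9 TPM at 29 °C against 21.0, 23.2 and 22.3 TPM at 18 °C, without overlap. Its difference between 29 and 18 °C was 0.67, 0.65, 0.52, 0.53 and 0.37 in the strains with the transgene, in the order used above, and 0.46 in w1118 (limma, largest adjusted p = 9.83e-06). In w1118 mRpS10 rose most, by 0.55, and mRpS35 rose by 0.39, with 27.4 TPM at 29 °C against 20.7 TPM at 18 °C. mRpS22 rose by 0.34 in w1118 to 0.63 in Mito 1 copy (limma, largest adjusted p = 1.73e-05).

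mRpL10, the counterpart of the bacterial protein at the base of the ribosomal stalk, fell most in w1118, with 27.5, 30.1 and 26.6 TPM at 29 °C against 41.6, 41.0 and 37.8 TPM at 18 °C, and -0.50 on the log2 scale (adjusted p = 3.49e-07, limma). mRpS14 fell in w1118 with 17.9, 21.2 and 17.2 TPM at 29 °C against 27.2, 24.6 and 25.9 TPM at 18 °C (-0.45), and by between 0.29 and 0.67 on the log2 scale in the strains with the transgene. mRpL23 had -0.44 in w1118 and between -0.69 and -0.37 in those strains. For all 3 genes the libraries at 29 °C lay below those at 18 °C in every strain. mRpL10 shares 40 exonic bases with CG11617 and mRpL23 shares 33 with CG8993, and both neighbours fell in w1118 as well, with -0.40 (adjusted p = 9.04e-05) and -0.27 (adjusted p = 4.96e-05, limma). Naa15-16, which shares 255 with mRpS14, rose by 0.19 there. mRpL27, the counterpart of a bacterial protein near the catalytic centre, passed in opposite directions. It rose by 0.25 in Cyto 1 copy and 0.18 in NLS 1 copy, fell with -0.19 in NLS 2 copies and -0.18 in Mito 2 copies, and rose by 0.19 in w1118 (limma, largest adjusted p = 0.0334).

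In w1118 the steps between neighbouring temperatures differed in their counts. At 25 °C against 18 °C, 4 genes rose and 9 fell, when 11.7% of all genes rose and 16.4% fell, and the 4 rises were all of the small subunit while 8 of the 9 falls were of the large subunit. At 29 °C against 25 °C, 18 rose and 0 fell, when 23.5% and 15.7% of all genes did (limma; 23 rose and 0 fell at an unadjusted p under 0.05). After quantile normalization 10 rose and 1 fell in that step. In the lower step rises were 30.8% of the calls with TPM as deposited, 41.7% after quantile normalization and 45.5% with median-ratio size factors. Without replicate 1 of w1118 at 25 °C, 1 gene fell in the upper step.

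Whether a strain's difference from w1118 itself changed between 18 and 29 °C was tested as an interaction. It passed for 4 of the 73 genes in Cyto 1 copy, when 32.4% of all genes passed, for 4 in NLS 1 copy, when 25.3% did, for 8 in NLS 2 copies, when 19.9% did, for 11 in Mito 1 copy, when 28% did, and for 9 in Mito 2 copies, when 15.5% did. The 5 tests share the w1118 libraries at both temperatures. In these counts 1 library mattered: the 4 calls in NLS 1 copy were 2 without replicate 1 of NLS 1 copy at 29 °C, the 8 in NLS 2 copies were 4 without replicate 2 of NLS 2 copies at 18 °C, and the 9 in Mito 2 copies were 5 without replicate 2 of w1118 at 29 °C.

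mRpS29 and mRpS10 of the small subunit passed in each strain. mRpS29 (2R, minus strand) is the fly counterpart of the mammalian GTP-binding protein DAP3. In the strains with the transgene it had 34.0 ± 1.20 TPM at 29 °C against 27.7 ± 0.394 TPM at 18 °C in Cyto 1 copy, 31.6 ± 1.53 against 24.6 ± 1.53 in NLS 1 copy, 32.1 ± 1.46 against 25.6 ± 1.01 in NLS 2 copies, 30.9 ± 1.58 against 23.7 ± 2.41 in Mito 1 copy and 32.3 ± 1.58 against 26.1 ± 1.68 in Mito 2 copies (SD, n = 3 each). In w1118 it had 29.4 ± 1.45, 28.4 ± 1.34 and 28.9 ± 1.14 TPM at 18, 25 and 29 °C. In each of these 5 strains the 3 libraries at 29 °C lay above the 3 at 18 °C. The differences between temperatures were 0.29, 0.35, 0.31, 0.37 and 0.29, against -0.02 in w1118, and the interactions 0.31, 0.37, 0.34, 0.40 and 0.32, each with a standard error of 0.084 (limma, largest adjusted p = 0.00572). At 18 °C mRpS29 was lower than in w1118 in NLS 1 copy, NLS 2 copies, Mito 1 copy and Mito 2 copies, with -0.25, -0.19, -0.30 and -0.16, and in Cyto 1 copy it had -0.08, which did not pass. The interaction of mRpS29 lost its call in Cyto 1 copy with median-ratio size factors, with 0.23, and in Mito 2 copies after quantile normalization, with 0.26. mRpS29 shares 65 exonic bases with qkr58E-2 on the other strand, which differed by 0.08 between 29 and 18 °C in w1118 and did not pass.

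mRpS10, the counterpart of a bacterial protein of the small subunit head, had the opposite sign. At 29 °C its means were 35.8 TPM in Cyto 1 copy, 37.2 in NLS 1 copy, 36.9 in NLS 2 copies, 38.4 in Mito 1 copy and 37.6 in Mito 2 copies, against 45.4 TPM in w1118, and every library of these strains at 29 °C lay below every w1118 library at 29 °C. In w1118 mRpS10 had 30.2, 30.1 and 31.6 TPM at 18 °C, 38.1, 34.8 and 39.9 TPM at 25 °C and 42.6, 48.3 and 45.1 TPM at 29 °C. At 18 °C none of the 5 strains differed from w1118 past the threshold, with differences between 0.03 and 0.16. The interactions were -0.46, -0.31, -0.35, -0.32 and -0.43, each with a standard error of 0.10 (limma, largest adjusted p = 0.0211). Both genes rest on the same 6 w1118 libraries in all 5 strains. The interaction of mRpS10 lost its call in NLS 1 copy without replicate 2 of w1118 at 29 °C, with -0.26, and without replicate 1 of NLS 1 copy at 29 °C, with -0.28. It lost its call in Mito 1 copy without replicate 2 of Mito 1 copy at 18 °C, with -0.24.

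**Figure D4:**
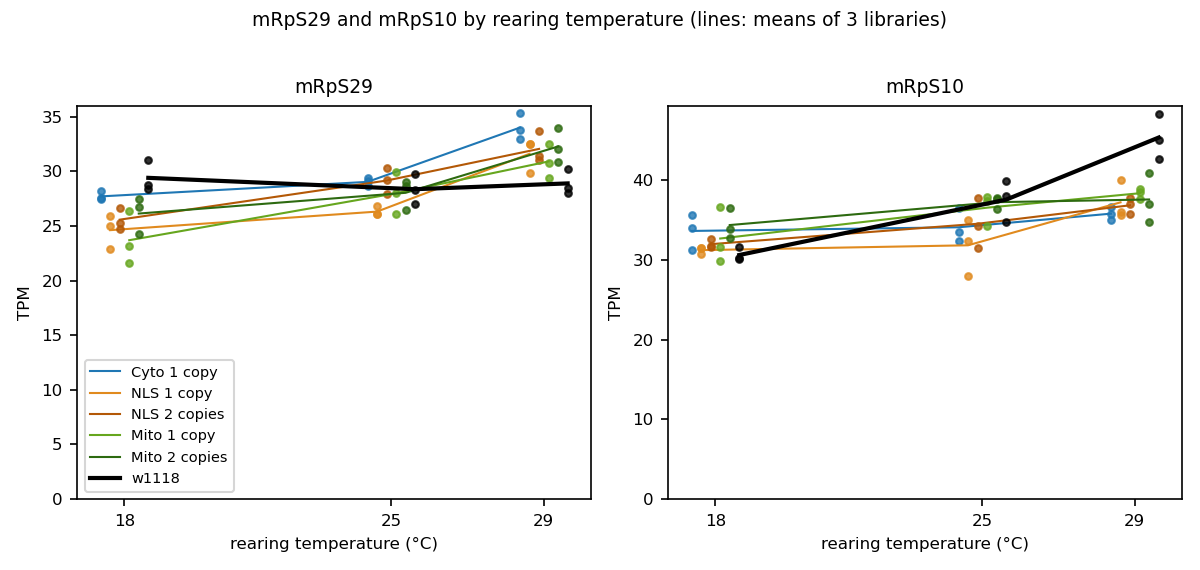
TPM of mRpS29 and mRpS10 at 18, 25 and 29 °C in single libraries (points, set slightly apart by strain) with lines through the means of 3 libraries. At 29 °C the strains with the transgene reach 30.9 to 34.0 TPM for mRpS29, where w1118 (black) is at 28.9 TPM, and 35.8 to 38.4 TPM for mRpS10, where w1118 is at 45.4 TPM.

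Other genes serve the same ribosome. Of all genes, 19.6% to 31.1% rose and 35.3% to 41% fell against w1118 over the 5 strains, and the shares in the following lists, of few genes each, are to be read against these. Of 9 mitochondrial translation factors, 2 rose and 4 or 5 fell against w1118 in each strain. mRRF1, which recycles ribosomes after termination, fell in all 5, with -0.70, -0.80, -0.76, -0.72 and -0.76 (limma, largest adjusted p = 7.52e-13), a larger difference than that of any ribosomal protein gene that fell. mEFTu1, an elongation factor that brings tRNAs to the ribosome, rose by 0.35, 0.27, 0.41, 0.33 and 0.39 (limma, largest adjusted p = 6.38e-10). Of 15 mitochondrial aminoacyl-tRNA synthetases, 6, 3, 4, 3 and 3 rose and 7, 6, 7, 6 and 4 fell. SerRS-m and ValRS-m, which charge the serine and valine tRNAs, fell with -0.56 to -0.50 and -0.47 to -0.26 over the strains. Of 11 factors that copy or express mitochondrial DNA, 6, 3, 3, 5 and 3 rose and 2, 2, 2, 1 and 2 fell. mtTFB1, a methyltransferase of mitochondrial ribosomal RNA, rose by 0.41, 0.08, 0.12, 0.24 and 0.28, and tam, the mitochondrial DNA polymerase, had -0.19, -0.29, -0.32, -0.19 and -0.24. The mitoribosomal protein genes tko and bonsai, whose symbols fall outside the rule, had differences from w1118 between 0.04 and 0.25, and each passed in 4 of the 5 strains.

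The messages that this ribosome translates were higher in the strains with the transgene. The mitochondrial genome encodes 13 proteins, and transcripts of 10 rose against w1118 in each of the 5 strains while 0 fell (limma, also 10 and 0 at an unadjusted p under 0.05), with medians of 0.47, 0.36, 0.46, 0.45 and 0.57. The other 3, mt:ATPase8, mt:ND4L and mt:ND6, had 0.690, 1.35 and 1.99 TPM in w1118 and did not pass. The sum of the 13 averaged 74040 ± 5557 TPM in Cyto 1 copy, 70010 ± 5698 in NLS 1 copy, 80380 ± 3559 in NLS 2 copies, 78540 ± 11470 in Mito 1 copy and 79630 ± 12560 in Mito 2 copies, against 54620 ± 5453 TPM in w1118 (SD, n = 9 each). mt:ND1 and mt:ATPase6, subunits of complex I and of the ATP synthase, had differences of 0.76 to 1.15 and of 0.49 to 0.86. Among 83 nuclear respiratory chain genes, 26, 33, 42, 44 and 59 rose and 29, 19, 16, 16 and 9 fell in the order Cyto 1 copy, NLS 1 copy, NLS 2 copies, Mito 1 copy and Mito 2 copies. Of 92 cytosolic ribosomal protein genes, 20, 59, 41, 29 and 17 rose and 14, 9, 12, 14 and 14 fell. Mitochondrial chaperones and proteases, which fold and degrade proteins in the organelle, had 4, 2, 1, 4 and 4 of 11 genes up and 4, 6, 5, 5 and 2 down. Among them Hsp22, a small heat shock protein of the mitochondrial matrix, rose by 2.26, 1.63, 1.85, 2.19 and 2.39 (limma, largest adjusted p = 9.75e-14).

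The 73 genes varied together less than cytosolic ribosomal protein genes or nuclear respiratory chain genes in these values, and more than the mitochondrial translation factors. Over pairs of the 73 genes, the median Pearson correlation of library residuals (each library minus its group mean, 54 libraries) was 0.11, and that of the 18 group means 0.20. Cytosolic ribosomal protein genes had 0.46 and 0.81, nuclear respiratory chain genes 0.27 and 0.61, mitochondrial aminoacyl-tRNA synthetases 0.12 and 0.24, mitochondrial translation factors 0.019 and 0.18, and all genes tested 0.038 and 0.024. Pairs share libraries and scaling, so these are descriptions only. The ratio of the highest to the lowest of the 18 group means was largest for mRpL37, at 2.37, followed by mRpL23 with 2.06, mRpS14 with 2.04 and mRpS35 with 1.99. It was smallest for mRpL30, at 1.19.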

How the data were processed

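Total RNA of whole flies was made into libraries with a TruSeq RNA v2 kit, per the labels' protocols. The authors deposited TPM values, and each library sums to 1000000. The submitters' processing notes name the builds BDGP6 and dm6; which aligner and counting program were used is not given in the sources used here. Read depth is unknown, so no counting interval was computed. Gene positions and overlaps come from the Ensembl BDGP6 annotation.

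A gene was tested if 3 or more libraries had 1 TPM or more (12555 genes). With limma 3.58.1 (R 4.3.3), 1 mean per group was estimated from log2(TPM + 1) in a single fit over the 54 libraries, with an intensity trend and 36 residual degrees of freedom, two-sided, adjusted by Benjamini-Hochberg at 0.05 within each of 39 comparisons. The added 1 understates changes of low genes. The method was tested on simulated data. Each strain comparison is the mean difference over 3 temperatures. Named genes are the highest and lowest 3 by mean TPM, the 3 largest rises and falls per strain (same sign at all temperatures), in temperature in w1118 and per interaction, the 2 largest per copy or compartment comparison, the largest shared ones, and up to 2 per other list. The 73 genes, the lists and this rule were chosen with earlier results of these data known. The numbering of replicates was not taken as a pairing, since same-number residuals correlated above 0.1 in all 3 numbers for 0 of 23 pairs of groups. Alternatives were another pseudocount, no filter, quantile normalization, median-ratio size factors, no trend, a replicate block, fewer libraries, leaving out each library, chromosome 2 left out, and single temperatures.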

Additional observations from a re-analysis of the deposited data

Results flagged for a closer look

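The difference of a strain from w1118 changed between 18 and 29 °C, by a test of that change itself (an interaction in limma, Benjamini-Hochberg adjusted p under 0.05), for 4 of the 73 genes in Cyto 1 copy, 4 in NLS 1 copy, 8 in NLS 2 copies, 11 in Mito 1 copy and 9 in Mito 2 copies. Of all genes tested, 32.4%, 25.3%, 19.9%, 28% and 15.5% passed in the same order, a larger share than among the 73 genes in each strain. Values below are the difference between 29 and 18 °C in the strain minus that in w1118, on the log2(TPM + 1) scale, and all rest on the same w1118 libraries. mRpS29 had 0.31 in Cyto 1 copy, 0.37 in NLS 1 copy, 0.34 in NLS 2 copies, 0.40 in Mito 1 copy and 0.32 in Mito 2 copies. mRpS10 had -0.46, -0.31, -0.35, -0.32 and -0.43 in the same order.

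Other genes were named in 1 or 2 strains. In Cyto 1 copy, mRpL33 had 0.45 and mRpL4 0.26, and mRpL4 lost its call without replicate 3 of w1118 at 29 °C, with 0.22. In NLS 1 copy, mRpL9 had 0.41 and mRpS26 0.29, and the call of mRpS26 was lost without any 1 of 9 libraries. In NLS 2 copies, mRpL4 had 0.24, mRpL16 0.23, mRpL27 -0.38 and mRpL51 -0.32, and all but mRpL27 lost their call without some single libraries, 9, 6 and 6 of them. In Mito 1 copy, mRpL20 had 0.48 and mRpS34 0.43, and mRpS34 lost its call without replicate 3 of w1118 at 18 °C, with 0.33. In Mito 2 copies, mRpL53 had -0.46 and mRpL14 -0.40, and mRpL14 lost its call without any 1 of 8 libraries. All 829 exonic bases of mRpL53 are shared with CG33155 on the same strand, so the value of mRpL53 is uncertain. CG33155 itself rose by 0.79 between 18 and 29 °C in w1118 (adjusted p = 7.36e-14, limma).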

How the results depend on the processing

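The counts of genes passing in all 39 comparisons stayed within 1.5 times with a pseudocount of 0.1, without the filter, without the intensity trend and with a replicate block, under which 42 genes passed in NLS 1 copy against w1118 and 1 of 101 named values, mRpL4 in the interaction of NLS 2 copies, lost its call. Of the 101 named values, 7 lost their call after quantile normalization, 6 with median-ratio size factors, 5 with the libraries compared alone, 2 without the filter and 1 without the trend. The libraries shared only a number, so the block is no pairing. Single temperatures gave fewer calls than the mean over temperatures: 21 at 18 °C and 22 at 25 °C in Cyto 1 copy, 24, 22 and 23 at 18, 25 and 29 °C in NLS 1 copy, 23, 23 and 25 in NLS 2 copies, 18 at 18 °C and 22 at 25 °C in Mito 1 copy, and 20 at 18 °C and 18 at 29 °C in Mito 2 copies. At 29 °C alone mRpL42 in NLS 2 copies had -0.040 and mRpL50 in Mito 1 copy had 0.020, the reverse of their mean over temperatures. Quantile normalization gave 11 calls at 29 °C against 25 °C in w1118, 38 in NLS 1 copy at 29 °C and 4 in the interaction of NLS 2 copies. Median-ratio size factors gave 9 calls for Mito 1 copy against NLS 1 copy and 7 in the interaction of Mito 1 copy. Counts by direction depended on scaling more than these totals. Of 78 such counts, 23 were marked as moved after quantile normalization and 19 with median-ratio size factors. Of 39 medians, 12 and 14 were marked as moved. The 18 falls in NLS 1 copy against w1118 became 9 with either scaling. The median interaction of Cyto 1 copy went from 0.07 to 0.05 and -0.02 in the same order. With the libraries of NLS 2 copies and w1118 alone, the interaction of NLS 2 copies gave 4 calls. With all libraries and the genes of chromosome 2 left out, that interaction passed for 6.12% of the 49 remaining ribosomal genes, against 11% of all 73. Leaving out 1 library gave 15 to 26 calls in Mito 2 copies at 25 °C, 15 to 23 in NLS 2 copies at 18 °C, and 2 to 6, 4 to 8 and 5 to 9 in the interactions of NLS 1 copy, NLS 2 copies and Mito 2 copies. The cause was not tested for any of these. A search of promoters for motifs was not run. The read depth is unknown, so no limit from counting can be given, and 3 libraries a group limit the precision.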
